A study of Mus musculus with 12 samples.

Results

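The 9 genes described here encode the 2′-5′-oligoadenylate synthetase (OAS) family and the cytosolic sensors of double-stranded RNA in mouse pancreatic stellate cells (PSCs). They are Oas1a, Oas2, Oas3, Oasl1 and Oasl2 of the OAS family, the RIG-I-like receptors Ddx58 (RIG-I), Ifih1 (MDA5) and Dhx58 (LGP2), and the kinase Eif2ak2 (PKR). They were chosen by name, with earlier results of these data known, and each was found in the deposited table of 39179 genes. RNA was sequenced from PSCs sorted after 72 h in 1 of 3 cultures, with 4 libraries per culture. PSCs were grown alone (mono-PSC), with pancreatic cancer cells (PCC–PSC, 2W-PSC), or with cancer cells and macrophages (PCC–PSC–MØ, 3W-PSC). Each culture was set up with the same total number of cells, so the co-cultures started with fewer PSCs than mono-PSC. Cell number and the presence of another cell type therefore cannot be told apart here.

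All cells were mouse lines in low-serum medium, and the labels give no treatment. The cancer line was maintained with doxycycline, and whether the cultures sequenced here held it is not stated. The PSCs were a single clone of SV40-immortalised C57BL/6 stellate cells that carried mCherry. The cancer cells were a mouse pancreatic tumour line with a doxycycline-inducible oncogene, derived with p48-Cre and p53 fl/+, and marked by EGFP. The macrophages were RAW264.7, a transformed macrophage line, marked by TagBFP. The sort kept mCherry-positive cells and discarded those positive for EGFP or TagBFP. The labels do not say whether the 4 libraries came from separate cultures. Each p-value sets a difference against the spread between these libraries, which may leave out the spread between cultures.

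OAS enzymes are activated by double-stranded RNA and make short 2′-5′-linked oligoadenylates, a second messenger that leads to RNA decay. RIG-I and MDA5 bind viral or other double-stranded RNA and signal through the mitochondrial adaptor MAVS to induce interferon, while LGP2 modulates both. PKR binds the same kind of RNA and phosphorylates the translation factor eIF2α. All of these genes are known interferon-stimulated genes, induced when the factor ISGF3, which includes IRF9, binds the interferon-stimulated response element (ISRE) in their promoters.

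By GENCODE positions on GRCm38, the 5 OAS genes lie on chromosome 5. Oas2 (120730333 to 120749853), Oas3 (120753098 to 120777661) and Oas1a (120896256 to 120907521) are transcribed from the minus strand within 177 kb. Oasl2 (114896936 to 114912234) and Oasl1 (114923240 to 114937915) are on the plus strand, with 11.0 kb between them. Ddx58 is on chromosome 4 (40203773 to 40239828), Ifih1 on chromosome 2 (62595798 to 62646255), Dhx58 on chromosome 11 (100694884 to 100704271) and Eif2ak2 on chromosome 17 (78852564 to 78882573), each on the minus strand.

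RefSeq promoter windows of GRCm38.p6, from 250 bases before to 50 bases after the gene start, were available for 7 of the 9 genes (those of Oas2 and Dhx58 were not used here). An ISRE core, written GAAANNGAAA and searched on both strands, was found in 5 of the 7 windows. Of all 32851 windows in the same table, 3.44% held it. As described after the sequences, all 9 genes were higher in 3W-PSC than in mono-PSC, including Oasl1 and Oasl2, whose windows held no core. Whether the core has a part in these levels was not tested. The stretches that hold the core are shown for their letters only. Each is printed 5′ to 3′ on the strand of its gene, with the ISRE core in capitals.
Oas1a, chr5:120907498-120907577, minus strand: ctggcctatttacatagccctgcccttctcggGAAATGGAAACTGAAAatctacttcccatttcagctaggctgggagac
Oas3, chr5:120777690-120777769, minus strand: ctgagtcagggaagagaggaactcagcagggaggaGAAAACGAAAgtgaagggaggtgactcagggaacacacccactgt
Ddx58, chr4:40239796-40239875, minus strand: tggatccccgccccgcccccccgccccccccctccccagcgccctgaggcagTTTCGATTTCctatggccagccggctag
Ifih1, chr2:62646206-62646235, minus strand: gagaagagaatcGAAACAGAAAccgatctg
Eif2ak2, chr17:78882543-78882622, minus strand: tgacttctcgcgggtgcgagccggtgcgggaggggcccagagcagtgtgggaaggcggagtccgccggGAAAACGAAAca

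The Oas1a window held 2 overlapping cores, which start 20 and 14 bases before the gene start. The Oas3 core starts 75 bases before it. Past the gene start, the Ddx58 core begins at base 3, in the TTTCNNTTTC form of the opposite strand, that of Eif2ak2 at base 19 and that of Ifih1 at base 33. Oas3 and Eif2ak2 carry the same 10 letters. No core was found in the windows of Oasl1 and Oasl2. A GAS element (TTCNNNGAA), the other main interferon response motif, was found in the windows of Oas1a and Eif2ak2, and in 8.30% of all windows. A match is a description of the letters and not a measured binding site.

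The libraries were made with a 3′ tag method in which about 1 fragment is counted per transcript, so that levels can be set side by side between genes without a length correction. Total counts per library ran from 5286963 to 8093368 in mono-PSC, from 4561817 to 6907711 in 2W-PSC and from 7205488 to 8061367 in 3W-PSC. The shallowest, 2W-PSC replicate 2, had 10363 genes with 10 or more counts, against 10915 to 11741 in the other libraries. Levels are given as CPM, the count per 1000000 of the TMM-scaled library total. The stellate markers Col1a1, Col1a2, Vim and others were abundant, and the 12 of them summed to 8997 to 12783 CPM in mono-PSC, 12627 to 19628 CPM in 2W-PSC and 7207 to 8737 CPM in 3W-PSC. Gfap was at 0 and Des and Lum were near 0. The 12 macrophage markers summed to 1.93 to 7.83 CPM in mono-PSC, 3.24 to 11.5 CPM in 2W-PSC and 11.7 to 49.6 CPM in 3W-PSC, and 12 epithelial markers to 0.484 to 2.46, 75.8 to 149 and 52.4 to 91.2 CPM in the same order of cultures. In bulk samples, a change in the share of a cell type and a change of RNA per cell cannot be told apart.

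The main comparison set PSCs grown with cancer cells and macrophages against PSCs grown with cancer cells only. In 3W-PSC, 8 of the 9 genes were higher than in 2W-PSC (edgeR quasi-likelihood test, Benjamini-Hochberg adjusted p under 0.05), and in these 8 genes every 3W library was above every 2W library. Over all 11513 genes tested, 5.73% were called higher, 4.95% were called lower, and 11.5% had every 3W library above every 2W library. As the 9 genes were chosen with earlier results of these data known, these shares are given for scale only. The median log2 fold change of the 9 genes was 1.59, beside 0.0025 over all genes tested. Oas1a, Oas2 and Oas3 had the greatest fold changes, the OAS-like genes and LGP2 followed, and RIG-I and MDA5 approximately doubled, at 2.18-fold and 2.07-fold. PKR was the gene that was not called. Oas1a, Oas2 and Oas3 would not have passed the filter on low counts by their 2W libraries alone. Their calls and their place in this order therefore rest on the culture in which they were high.

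**Figure D1:**
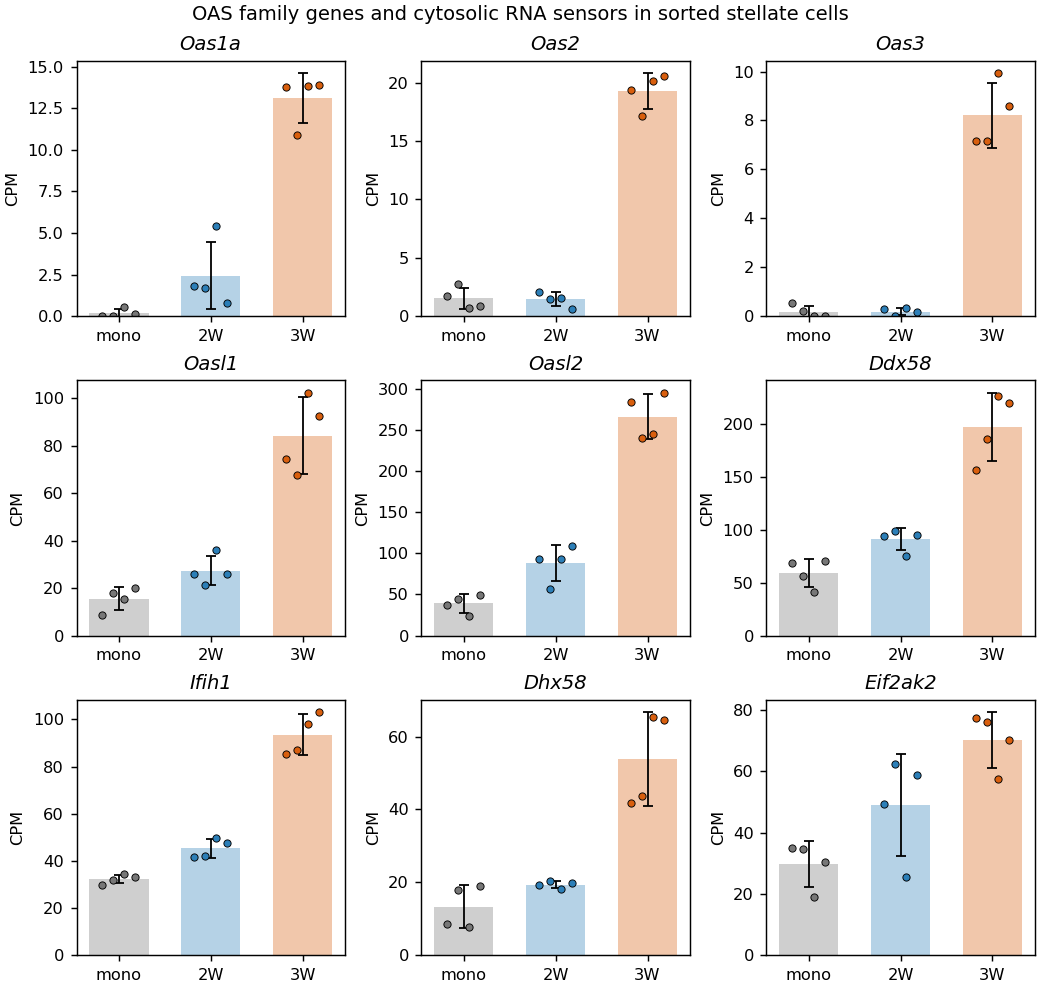
CPM of each gene (y axis, linear, from 0) in the 4 mono-PSC, 4 2W-PSC and 4 3W-PSC libraries. Points are libraries, bars are means and error bars are SD. In 8 panels the 3W points lie above all others, whereas in the Eif2ak2 panel the 3W and 2W points overlap.

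Oas3, which makes 2′-5′ oligoadenylates and contains 3 OAS units in a chain, was close to undetectable in the cultures without macrophages. It had 3, 1, 0 and 0 counts in the mono-PSC libraries, 2, 0, 2 and 1 counts in the 2W-PSC libraries, and 54, 62, 78 and 66 counts in the 3W-PSC libraries. The 3W libraries stood apart from all 8 others, which overlapped each other. The 260 counts of 3W-PSC against 5 of 2W-PSC gave a ratio of 38.82 per TMM-scaled library (exact 95% interval 16.4 to 121, counting error only). In the fit, the log2 fold change was 5.19 ± 0.51 (SE) with an edgeR adjusted p of 0.000166.

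Oas2, with 2 OAS units, was detected in every library at a low level in the absence of macrophages. Its counts were 10, 14, 4 and 7 in mono-PSC, 15, 6, 10 and 4 in 2W-PSC, and 146, 148, 158 and 158 in 3W-PSC. The 3W libraries agreed closely with each other, and the mono and 2W libraries overlapped. The mean level was 1.51 ± 0.94 CPM in mono-PSC, 1.45 ± 0.61 CPM in 2W-PSC and 19.3 ± 1.52 CPM in 3W-PSC (SD, n = 4). From 2W-PSC to 3W-PSC it rose 13.0-fold (log2 fold change 3.70 ± 0.33 SE, edgeR adjusted p = 9.31e-05). Its p-value was the smallest of the 9 genes, at rank 22 among all genes tested. Oas2 passed the filter on low counts only through its 3W libraries, so this rank rests on the culture in which it was high.

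Oas1a, the short synthetase with 1 OAS unit, differed from Oas2 and Oas3 in 2W-PSC. Counts were 0, 0, 3 and 1 in mono-PSC, 13, 7, 34 and 5 in 2W-PSC, and 104, 94, 109 and 107 in 3W-PSC. Each culture was separate from the next, and the 2W libraries varied most, with replicate 3 at 5.41 CPM and the other three at 0.803 to 1.83 CPM. Oas1a was 13.1 ± 1.5 CPM in 3W-PSC and 2.44 ± 2.03 CPM in 2W-PSC (SD, n = 4), a log2 fold change of 2.40 ± 0.47 (SE, edgeR adjusted p = 0.00852). None of the 75-base windows in the last 500 bases of the annotated coding transcripts of Oas1a, or of any other of the 9 genes, was shared with another GENCODE gene.

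Oasl1 and Oasl2 encode OAS-like proteins with ubiquitin-like domains, of which mouse Oasl2 is known to retain synthetase activity and Oasl1 is not. Oasl2 was the more abundant in each culture. Its level was 37.2, 45, 24.3 and 49.8 CPM in mono-PSC, 93.1, 57.2, 93.6 and 109 CPM in 2W-PSC, and 284, 240, 246 and 296 CPM in 3W-PSC. No library of one culture reached the range of the next. The log2 fold change from 2W-PSC to 3W-PSC was 1.59 ± 0.20 (SE, edgeR adjusted p = 0.000839). Oasl1, which in mice is known to restrain the translation of Irf7 mRNA, was 8.78, 17.8, 15.4 and 20.2 CPM in mono-PSC, 25.9, 21.3, 36 and 26 CPM in 2W-PSC, and 74.5, 67.7, 102 and 92.8 CPM in 3W-PSC. The cultures again did not overlap, and the log2 fold change from 2W-PSC to 3W-PSC was 1.63 ± 0.21 (SE, edgeR adjusted p = 0.000883).

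Among the sensors, Ddx58 was 69.0, 56.2, 41.7 and 70.2 CPM in mono-PSC, 94.2, 98.9, 75.6 and 95.4 CPM in 2W-PSC, and 157, 186, 227 and 220 CPM in 3W-PSC. The log2 fold change from 2W-PSC to 3W-PSC was 1.12 ± 0.17 (SE, edgeR adjusted p = 0.00253). Ifih1 was at 32.2 ± 1.86 CPM in mono-PSC, 45.2 ± 4.05 CPM in 2W-PSC and 93.4 ± 8.69 CPM in 3W-PSC (SD, n = 4). Its lowest 3W library, at 85.1 CPM, was above its highest 2W library, at 49.7 CPM, and the log2 fold change was 1.05 ± 0.15 (SE, edgeR adjusted p = 0.00179).

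Dhx58, the RIG-I-like receptor without signalling domains of its own, was 8.60, 17.8, 7.81 and 18.9 CPM in mono-PSC, 19.1, 20.4, 18.0 and 19.7 CPM in 2W-PSC, and 41.8, 43.6, 65.4 and 64.6 CPM in 3W-PSC. The mono and 2W libraries overlapped and the 3W libraries were all above both. Its log2 fold change from 2W-PSC to 3W-PSC was 1.48 ± 0.21 (SE, edgeR adjusted p = 0.00128), the greatest of the 3 receptors. Dhx58 shares 141 exonic bases with the opposite-strand gene Dhx58os, and whether the counting used strand is not stated. The same holds for 174 bases of Eif2ak2 (with Gm26637) and 38 bases of Oasl1 (with Gm13822).

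Eif2ak2 was 34.9, 34.7, 18.8 and 30.4 CPM in mono-PSC, 49.3, 62.6, 25.5 and 58.9 CPM in 2W-PSC, and 77.4, 76.1, 57.4 and 70.1 CPM in 3W-PSC. The lowest 3W library lay below 2 of the 2W libraries. The log2 fold change was 0.52 ± 0.26 (SE) with an edgeR adjusted p of 0.221. This miss of the threshold does not show that PKR mRNA was the same in the 2 cultures. Across the 12 libraries, the log2 CPM of Eif2ak2 also had the lowest Pearson correlation with the mean profile of the other 8 genes, 0.756, whereas the other genes had 0.892 to 0.975. These libraries fall into 3 cultures, and the values describe likeness only.

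The order of the genes shifted between cultures. Ddx58 had the highest mean of the 9 in mono-PSC and 2W-PSC, in both with libraries that overlapped those of Oasl2. In 3W-PSC, Oasl2 was first at 266 ± 27.7 CPM and did not overlap Ddx58 at 198 ± 32.4 CPM. Oas2, Oas1a and Oas3 were the 3 lowest in every culture. In 3W-PSC they stood in that order, without overlap between neighbours, at 19.3 ± 1.52, 13.1 ± 1.5 and 8.21 ± 1.32 CPM (SD, n = 4).

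Summed over the 9 genes, the level was 191 ± 34.3 CPM in mono-PSC, 324 ± 25.2 CPM in 2W-PSC and 806 ± 71.2 CPM in 3W-PSC (SD, n = 4). The 5 OAS genes made up 25.3 to 31.9% of this sum in mono-PSC, 26.7 to 44.8% in 2W-PSC and 46.6 to 52.5% in 3W-PSC. Within the OAS sum, Oas1a, Oas2 and Oas3 took 1.36 to 4.73%, 1.17 to 5.35% and 9.97 to 11.2%. Both shares were higher in each 3W library than in any other library, although Oasl2 alone was still above the sum of these 3 genes.

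**Figure D2:**
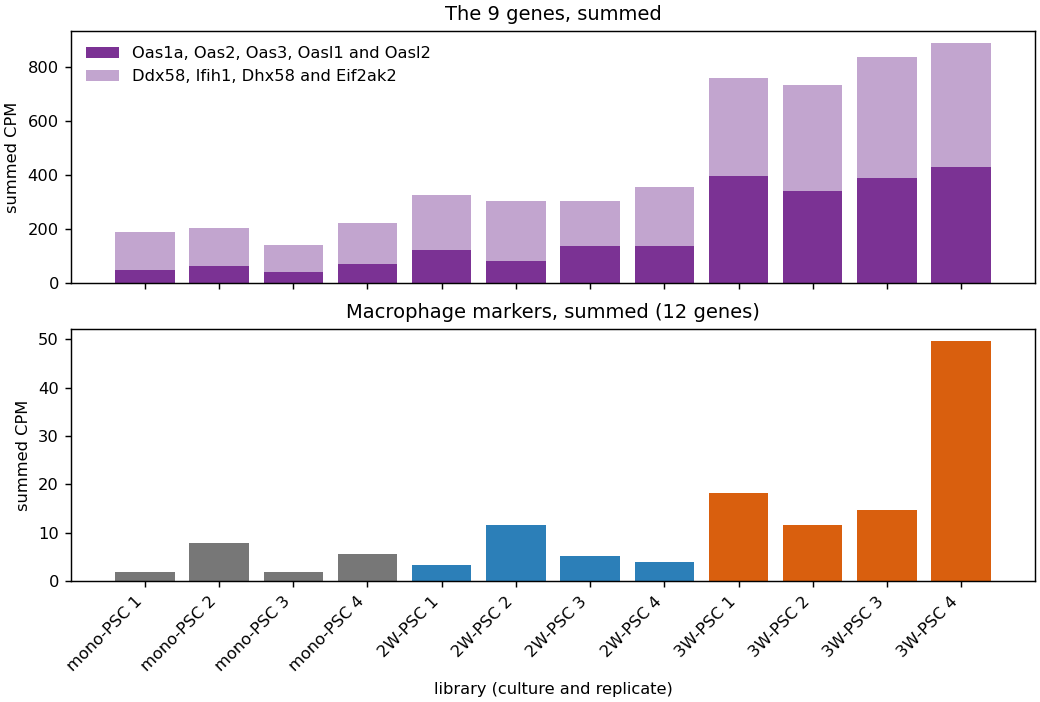
Top, CPM summed over the 9 genes in each of the 12 libraries, with the OAS genes in the dark part of the bar and the sensors in the light part. Bottom, CPM summed over 12 macrophage markers in the same libraries. The 3W libraries have 735 to 890 CPM in the top panel, and 3W-PSC replicate 4 stands out in the bottom panel at 49.6 CPM.

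The macrophage marker sum, like that of the 9 genes, was higher in 3W-PSC, at 11.7 to 49.6 CPM. It was 3.24 to 11.5 CPM in 2W-PSC, a culture without macrophages. Of the 12 markers, 4 were tested and Cd53 was called higher (log2 fold change 2.45, edgeR adjusted p = 0.00355). Emr1 (F4/80) was at 0 in every library, and Ptprc (CD45) had 0, 0, 6 and 20 counts in 3W-PSC. Like Ptprc, Laptm5, Tyrobp, Spi1 and Aif1 were at 0 in every mono-PSC and 2W-PSC library. In 3W-PSC they had 83, 28, 16 and 6 counts over the culture, with 1 to 75 Laptm5 counts per library. Fcer1g had 7 counts over 2W-PSC and 65 over 3W-PSC, while Csf1r had similar means, at 2.35 and 2.31 CPM. Replicate 4 had the greatest marker sum, and 3W-PSC replicates 1 to 3 had 11.7 to 18.2 CPM. Without replicate 4, and also with 2W-PSC replicate 2, the shallowest library, left out as well, 8 of the 9 genes were called higher. The summed level of the 9 genes in 3W-PSC replicates 1 to 3 was 735 to 840 CPM. Whether RNA from macrophages adds to the level of these genes was not tested.

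The comparison of 2W-PSC with mono-PSC sets PSCs grown with cancer cells, without macrophages, against PSCs grown alone. Of the 9 genes, 6 passed the filter on low counts and were tested, and 0 were called at an edgeR adjusted p under 0.05. At an unadjusted p under 0.05 there were 5 of the 6, beside at least 813 of all 11199 genes tested. DESeq2 called 2 of the 9 genes, Oasl2 and Oas1a. Over all 11199 genes tested, 0.839% were called higher, 0.152% were called lower, and 3.29% had every 2W library above every mono library. Such separation was seen for Oasl1, Oasl2, Ddx58 and Ifih1 among the 6, though for Oasl1 and Ddx58 it was lost when CPM was computed on total counts. All 6 fold changes were positive, with a median log2 fold change of 0.68, beside 0.02 over all genes tested. The epithelial marker sum also moved between these cultures, from 0.484 to 2.46 CPM in mono-PSC to 75.8 to 149 CPM in 2W-PSC. All 5 of 5 tested markers were called higher, while Epcam, Cldn4, Cldn7, Esrp1 and Ehf were at 0 in every 2W library. Its part in the levels of the 9 genes was not tested.

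Oasl2 came nearest to the threshold, at 2.28-fold (log2 fold change 1.19 ± 0.26 SE, edgeR adjusted p = 0.0552). Without 2W-PSC replicate 2 its adjusted p was 0.00258. Oasl1 was 1.77-fold higher on average (adjusted p = 0.378), Eif2ak2 1.67-fold (adjusted p = 0.507), Ddx58 1.55-fold (adjusted p = 0.312), Dhx58 1.47-fold (adjusted p = 0.869) and Ifih1 1.42-fold (adjusted p = 0.414), all by the edgeR test.

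The filter removed Oas1a, Oas2 and Oas3 from this comparison. For Oas1a, the 59 counts of 2W-PSC against 4 of mono-PSC gave a ratio of 15.4 (exact 95% interval 5.70 to 58.3, counting error only). Every 2W library was above every mono library, and a two-sided exact permutation test of log2 CPM gave p = 0.0286 (n = 4 per culture), the smallest that 4 against 4 libraries can give. The same exact permutation test gave p = 1 for Oas2 and p = 0.83 for Oas3 (n = 4 per culture), whose ratio of 5 against 4 counts was 1.30 (exact 95% interval 0.281 to 6.57). A change of Oas3 between these cultures was not detectable at this depth.

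In 3W-PSC against mono-PSC, 9 of the 9 genes were called higher, PKR included, and in each of them every 3W library was above every mono library. Oas1a, Oas2 and Oas3 again passed the filter on low counts only through their 3W libraries. Over all 11551 genes tested, 13.4% were called higher, 13.0% were called lower, and 13.7% had every 3W library above every mono library. This comparison shares its libraries with the other 2. Eif2ak2 was 2.36-fold higher (log2 fold change 1.24 ± 0.20 SE, edgeR adjusted p = 0.000164), of which neither step alone passed the test. Fold changes of the other sensors were 2.88 for Ifih1, 3.31 for Ddx58 and 4.01 for Dhx58, and those of the OAS-like genes were 5.36 for Oasl1 and 6.76 for Oasl2. Oas2 rose 13.0-fold. Pooled counts of Oas3 gave a ratio of 50.6 (exact 95% interval 19.5 to 187) and those of Oas1a a ratio of 80.6 (exact 95% interval 31.2 to 297).

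**Figure D3:**
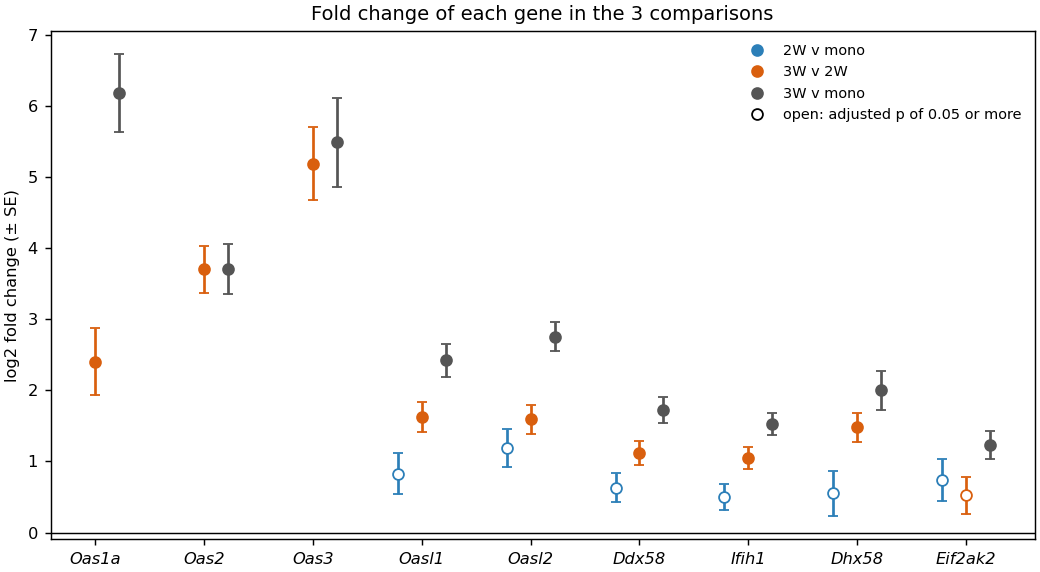
Log2 fold change (y axis) with its SE from edgeR for each gene in the 3 comparisons. Filled points have an adjusted p under 0.05, open points do not, and no point is drawn for Oas1a, Oas2 and Oas3 in 2W against mono, where they were not tested. Oas2 and Oas3 have their rise in the 3W step, at 3.70 and 5.19, while Eif2ak2 is filled only against mono.

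Of the 7 other mouse OAS genes in the list, Oas1d, Oas1e, Oas1f and Oas1h were at 0 in every library. Oas1g, a close neighbour and paralogue of Oas1a, had 1, 0, 0 and 0 counts in mono-PSC, 0 in each 2W-PSC library, and 10, 25, 10 and 13 counts in 3W-PSC. With a floor of 3 counts put in for 2W-PSC, the ratio of 3W-PSC to 2W-PSC was 14.4, given without an interval. Oas1g did not pass the filter on low counts and was not tested in the main fit. Oas1b had 6.82 ± 2.06, 9.67 ± 3.72 and 16.2 ± 0.95 CPM in mono-PSC, 2W-PSC and 3W-PSC (SD, n = 4), with an edgeR adjusted p of 0.112 for 3W against 2W and of 0.00185 for 3W against mono. Every 3W library was above every 2W library, and without 2W-PSC replicate 2 the call was made (edgeR adjusted p = 0.0112). Its mean was above those of Oas1a and Oas3 in each culture. Oas1c had a log2 fold change of 0.10 between 3W-PSC and 2W-PSC (edgeR adjusted p = 0.918).

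Pde12, a phosphodiesterase that degrades the 2′-5′ oligoadenylates, was 10.7 ± 2.02 CPM in 2W-PSC and 19.9 ± 1.27 CPM in 3W-PSC (SD, n = 4; log2 fold change 0.89 ± 0.21 SE, edgeR adjusted p = 0.0232). The call depended on single libraries, as it was lost without any 1 of the 3W-PSC libraries (highest adjusted p over the alternatives 0.0752). Against mono-PSC, Pde12 was not called (edgeR adjusted p = 0.269).

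Downstream and upstream of the RIG-I-like receptors, 18 of 19 listed adaptors and regulators were tested. Beside 4.95% lower and 5.73% higher over all genes tested, 0 of the 18 were lower and 6 were higher in 3W-PSC than in 2W-PSC. These were Ikbke (log2 fold change 1.83), the kinase that with TBK1 phosphorylates IRF3 and IRF7, Ddx60 (1.63), a helicase linked to RIG-I signalling, Irf7 (1.43), the factor that amplifies type I interferon transcription, Zc3hav1 (0.85), the zinc-finger antiviral protein, Trim25 (0.80), a ubiquitin ligase of RIG-I, and Cyld (0.51), a deubiquitinase that restrains it. Their edgeR adjusted p-values ran from 0.000266 to 0.0416. The calls of Ddx60, Irf7, Zc3hav1 and Trim25 held in each of 15 alternatives, that of Ikbke in 10 (lost without 2W-PSC replicate 1, 3 or 4, or 3W-PSC replicate 1 or 2) and that of Cyld in 5 (held without 2W-PSC replicate 2 but lost without any other single library). Irf7 was 33.7 ± 9.82 CPM in mono-PSC, 56.2 ± 16.3 CPM in 2W-PSC and 151 ± 24.1 CPM in 3W-PSC (SD, n = 4), and its 3W libraries did not overlap the others. The adaptor Mavs was 13.0 ± 2.78, 11.6 ± 2.04 and 13.9 ± 3.05 CPM, and its log2 fold change was 0.25 for 3W against 2W (edgeR adjusted p = 0.558). The log2 fold change of Irf3 was -0.35 (edgeR adjusted p = 0.438).

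Of the 12 genes of the PKR arm, 1 was higher and 1 was lower in 3W-PSC than in 2W-PSC. Over all genes tested, 5.73% were higher and 4.95% were lower, so the counts of this list are near those shares. Adar, which edits double-stranded RNA and limits its sensing, was 28.5 ± 7.80 CPM in 2W-PSC and 64.5 ± 3.91 CPM in 3W-PSC (log2 fold change 1.17 ± 0.21 SE, edgeR adjusted p = 0.0063). Ddit3 (CHOP), a target gene of the stress response that eIF2α phosphorylation sets off, was 775 ± 313 CPM in 2W-PSC and 366 ± 68.6 CPM in 3W-PSC (log2 fold change -1.08 ± 0.26 SE, edgeR adjusted p = 0.0258). The Adar call held in each of 15 alternatives, and the Ddit3 call was lost without 2W-PSC replicate 4 or 3W-PSC replicate 1, 2 or 4 (highest adjusted p 0.100). Atf4, the transcription factor of that response, was at -0.88 on the log2 scale (edgeR adjusted p = 0.0599), and Prkra (PACT), an activator of PKR, at -0.63 (edgeR adjusted p = 0.057). Both were called lower by DESeq2 (adjusted p of 0.0164 for Atf4 and 0.0223 for Prkra), and both by edgeR without 2W-PSC replicate 2 (0.0283 and 0.0123). Atf4 was also called by edgeR without 2W-PSC replicate 3 (adjusted p = 0.0278), without the filter (0.0418) and in the fit of all 12 libraries (0.0345). Prkra was also called by edgeR with the size factors of DESeq2 (adjusted p = 0.0494). The count of genes that were lower therefore depends on the tool, the filter, the scaling, the fit and single libraries. Against mono-PSC, Ddit3, Atf4 and Prkra were all lower in 3W-PSC, and Adar and Eif2ak4 were higher, where 13.0% of all genes tested were lower and 13.4% higher.

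**Figure D4:**
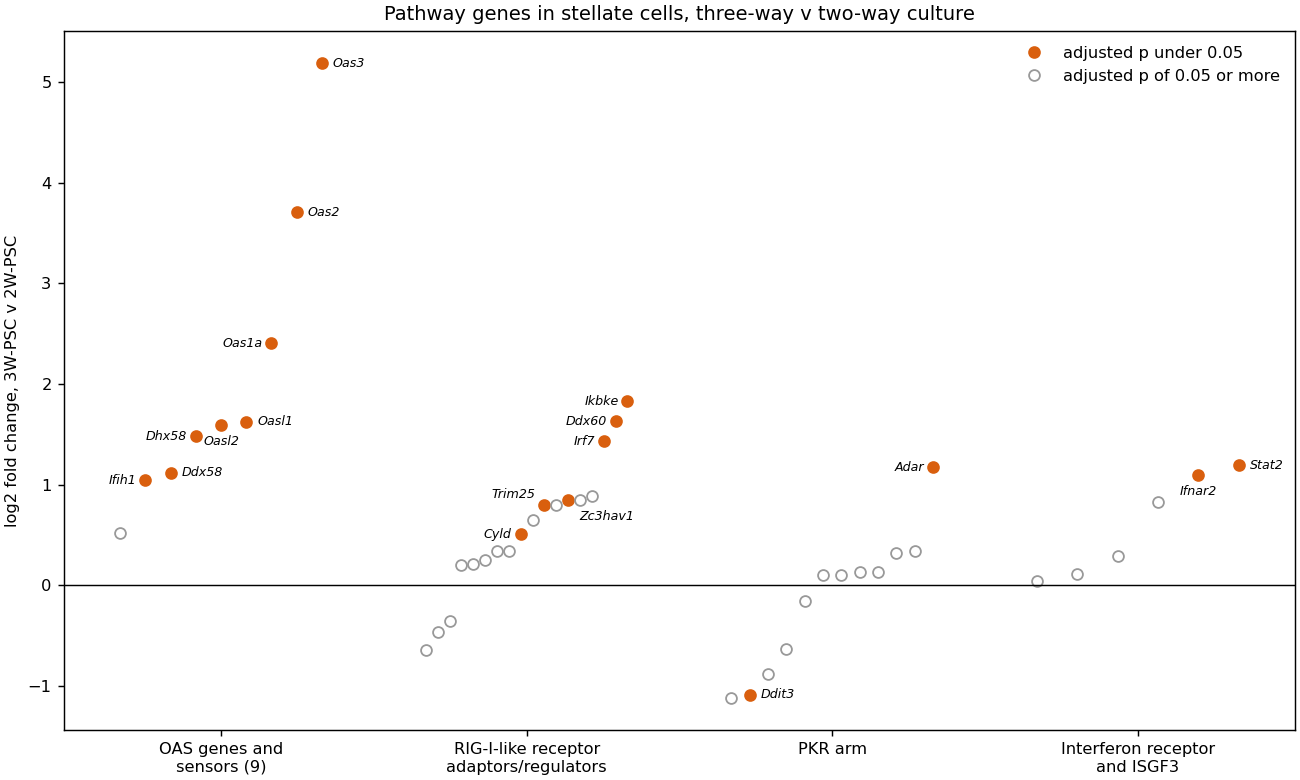
Log2 fold change of 3W-PSC against 2W-PSC (y axis) for the 9 genes and for tested genes of 3 pathway lists, each sorted within its list. Filled points are named and have an edgeR adjusted p under 0.05. Ddit3, at -1.08, is the filled point below 0.

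No interferon gene could be tested. Only sorted PSCs at 72 h were sequenced, so interferon transcripts of the cancer cells and macrophages, or at other times, were not measured. Of 21 listed interferon genes 19 were in the table, and 17 of these were at 0 in all 12 libraries. Ifne had 1 count in 1 library and Ifnz at most 6 counts in a library. For a gene at 0, the limit that 3 counts over the culture allows was 0.122 CPM in mono-PSC, 0.123 CPM in 2W-PSC and 0.0981 CPM in 3W-PSC.

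On the receiving side, 2 of 6 genes of the interferon receptor and ISGF3 list were higher in 3W-PSC than in 2W-PSC and 0 were lower. Over all genes tested, these shares were 5.73% and 4.95%. The receptor chain Ifnar2 rose from 30.3 ± 2.77 to 64.7 ± 6.43 CPM (edgeR adjusted p = 0.00199) and Stat2 from 68.9 ± 7.99 to 157 ± 16.4 CPM (edgeR adjusted p = 0.000936). Both calls held in each of 15 alternatives. Irf9, the DNA-binding part of ISGF3, was 110 ± 11.6, 159 ± 30.1 and 163 ± 22.0 CPM in mono-PSC, 2W-PSC and 3W-PSC (SD, n = 4). Its log2 fold change in 3W against 2W was 0.04 (edgeR adjusted p = 0.907) and was called higher in 3W against mono (edgeR adjusted p = 0.0109, and 0.0507 without 3W-PSC replicate 4). In 2W-PSC against mono-PSC, 0 of the 37 tested genes of these lists, other OAS genes included, were called by edgeR. At an unadjusted p under 0.05 there were 4 of the 37, beside at least 813 of all 11199 genes tested. DESeq2 called 1 of the 37, Ddx60.

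The likeness of all other genes to the 9 was measured as Pearson's r over the 12 libraries between log2 CPM and the mean standardised profile of the 9 genes, over 8695 genes with a mean log2 CPM above 3. The 8 genes most alike were Tap1 (r = 0.991), Ddx60 (0.990), Dtx3l (0.987), Parp14 (0.981), Zbp1 (0.980), Gbp7 (0.979), Itpripl2 (0.979) and Samd9l (0.979). The r values describe a shared order of 3 cultures and carry no test. Tap1, a transporter of peptides for MHC class I, was 11.6 ± 2.56 CPM in mono-PSC, 18.6 ± 2.82 CPM in 2W-PSC and 71.6 ± 9.19 CPM in 3W-PSC (SD, n = 4). Zbp1, a sensor of Z-form RNA and DNA, was 1.36 ± 0.39, 6.85 ± 4.42 and 84.4 ± 10.4 CPM, and so was intermediate in 2W-PSC as Oas1a was. Parp14, an ADP-ribosyltransferase, was 14.4 ± 4.20, 29.4 ± 7.62 and 155 ± 19.96 CPM.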

How the data were processed

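Libraries were made from sorted mCherry-positive PSCs with the QuantSeq 3′ kit. Per the labels, the authors used STAR for alignment, GRCm38 as the genome, and featureCounts for the gene counts. The deposited values are raw counts, although they are described as normalised, and neither a strand setting nor molecular identifiers are stated. All 12 columns were used. Each comparison was fitted on its own 8 libraries with edgeR 4.0.16 (R 4.3.3): filterByExpr, TMM, quasi-likelihood F test, two-sided, Benjamini-Hochberg adjustment over all genes tested, called under 0.05. DESeq2 1.42.0, other scalings and filters, a fit of all 12 libraries, a replicate block and leaving out each library were alternatives. The fits were tested on simulated data. Genes outside the fit were compared by exact permutation of log2(CPM + 0.5) (scipy 1.17.1). Transcript windows were matched with blastn. The 9 genes, the pathway lists and the rule that names the 8 genes most alike were chosen with earlier results of these data known. Every member is named, listed genes are given as counts with values for those called or on which a result turns, and a few further listed genes (Mavs, Irf3, Irf9, Atf4, Prkra, Oas1c) are named for their place in the pathway. Intervals cover counting error only. A few listed genes are not reported here and are left out of the counts over lists.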

Additional observations from a re-analysis of the deposited data

Results flagged for a closer look

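Of the 27 sets of 4 libraries (9 genes in 3 cultures), 1 held a library far from the other three by Dixon's criterion, which chance alone gives in about 1 in 20 sets. The Oas1a level in 3W-PSC replicate 2 was 10.87 CPM, while the other 3W-PSC libraries were at 13.8 to 13.9 CPM. It was still above each 2W-PSC and mono-PSC library.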

How the results depend on the processing

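The 8 calls in 3W-PSC against 2W-PSC were made in each alternative that tested the 9 genes, each library left out included. With at least 10 counts required in every library, Oas1a, Oas2 and Oas3 were not tested and 5 of the remaining 6 genes were called. Eif2ak2 was not called in any of 15 alternatives (adjusted p 0.0552 to 0.401). Over all genes, 1230 were called, and 497 to 2107 with 1 library left out (666 without 2W-PSC replicate 4, 2107 without 2W-PSC replicate 2, and 550, 497, 750 and 667 without 3W-PSC replicates 1 to 4). In 2W-PSC against mono-PSC, the count of the 9 genes called was 0, and 1 without the filter (Oasl2), 2 in 1 fit of all 12 libraries, 2 with DESeq2 (both Oasl2 and Oas1a) and 0 to 1 with 1 library left out (Oasl2, without 2W-PSC replicate 2). Oas1a had an adjusted p of 0.141 without the filter, 0.0135 in the fit of all 12 libraries and 0.0390 with DESeq2. The all-gene count of 111 there became 177 without the filter, 57 with at least 10 counts in every library, 262 in the fit of all 12 libraries, 275 with DESeq2 and 61 to 233 with 1 library left out (63 and 61 without mono-PSC replicates 3 and 4, and 64, 233 and 61 without 2W-PSC replicates 1, 2 and 4). The cause was not tested. All 9 genes held in 3W-PSC against mono-PSC wherever tested, and no fold change of the 9 genes given by the edgeR tests of the report turned in direction. The log2 fold change of Oas2 in 2W-PSC against mono-PSC, not tested there, was -0.24 to 0.23 in the alternatives that tested it. In 2W against mono, the deviations of same-numbered libraries correlated at 0.0990 to 0.338, and those of differently numbered libraries at -0.265 to 0.215. In 3W against 2W these ranges were -0.05 to 0.155 and -0.167 to 0.108. In 3W against mono they were 0.0026 to 0.107 and -0.124 to 0.0721. The labels do not say whether a number marks a shared batch, and the main fits did not take the numbers as pairs. With a replicate block, 135 genes were called in 2W against mono, 752 in 3W against 2W and 3092 in 3W against mono, and no call among the 9 genes changed. A library correlated best with its own number in 6, 3 and 4 of 8 cases in 2W against mono, 3W against 2W and 3W against mono. Low counts limit Oas3 in mono-PSC and 2W-PSC and Oas1a in mono-PSC, where each library had at most 3.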
